A study of Sus scrofa with 8 samples.

Results

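Antigen processing and MHC regulator genes are described here as 10 genes, namely B2M, CD74, TAP1, TAP2, TAPBP, PSMB8, PSMB9, NLRC5, CIITA and CD1D, chosen by symbol and all found among the 14718 gene rows of the table. Their RNA was followed in the left ventricle of 8 pigs, from a study that models long QT syndrome by gene editing. The mutant group holds 4 pigs, numbered 6 to 9: replicates 1 to 3 carry the label of a KCNH2 mutation, replicate 4 that of a KCNH3 mutation, and the design text speaks only of KCNH2. The wild-type (WT) group holds the 4 pigs numbered 1, 2, 4 and 5 (replicates 1 to 4). The nature of the edited allele, the breed, age and sex of the animals and any treatment are not given in the labels, and nothing beyond the pig numbers says how the animals are related, so p-values measure only the spread between these samples.

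Nearly all nucleated cells display peptides from their own proteins on MHC class I molecules. The proteasome cuts the peptides, the TAP transporter carries them into the endoplasmic reticulum, and loading factors place them on a heavy chain held by β2-microglobulin. Class II molecules instead carry peptides from the endosomal pathway and are guided there by the invariant chain CD74. NLRC5 and CIITA are related coactivators that switch on the class I and class II gene sets, and interferon gamma induces most of this machinery. In pigs, unlike mice, capillary endothelium carries class II molecules even at rest.

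Values are normalized counts, that is, reads per gene divided by 1 size factor per library, and levels of 1 gene are compared between libraries. Ratios and marker sums combine genes within a library without correction for gene length, and the makeup of a sum is given in counts only. Differences are mutant minus WT on the scale log2(normalized count + 1), tested with limma over 11660 genes. Libraries held 15.9 to 22.4 M reads, and mitochondrially encoded genes took 15.9% to 27.5% of the reads in mutant libraries and 31.7% to 87.9% in WT libraries. WT replicate 3 stands apart, with 2.53 M reads of nuclear genes against 7.53 to 16.2 M in the other libraries, so 1 read there is worth 4.84 normalized counts. The differences of the 10 genes are therefore also given without that library. Cardiomyocyte markers were present in every library (9 of 9 in the table), with summed levels of 751358 to 799030 normalized counts in mutant and 472316 to 686921 in WT libraries.

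None of the 10 genes passed at an adjusted p under 0.05 (limma; smallest adjusted p = 0.328, for NLRC5), where 0% of all genes tested passed. The group difference was below 0 for 6 of the 10 genes, against 43.1% of all genes, and their median difference was -0.44, against 0.12 over all genes. That median rested on single libraries: it was -0.0028 without WT replicate 4, the highest library for most of these genes, and -1.19 without WT replicate 3, the lowest (limma). At an unadjusted p under 0.05 only NLRC5 was lower in mutant ventricles, where 6.8% of all genes were. Every one of the 10 genes had overlapping groups, while 5.22% of all genes had every mutant library below every WT library and 6.17% had every mutant library above. Without WT replicate 3 the difference was below 0 for 9 of 10 genes, against 47.8% of all genes, whose median was 0.03. All mutant libraries then lay below the 3 remaining WT libraries for 5 genes, NLRC5, TAP1, TAP2, PSMB8 and PSMB9, where 8.05% of all genes did so; none lay wholly above, where 8.56% did. These 5 genes and CIITA were then lower at an unadjusted p under 0.05, where 7.68% of all genes were, and still none of the 10 passed limma after adjustment (smallest adjusted p = 0.154, for TAP1).

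**Figure D1:**
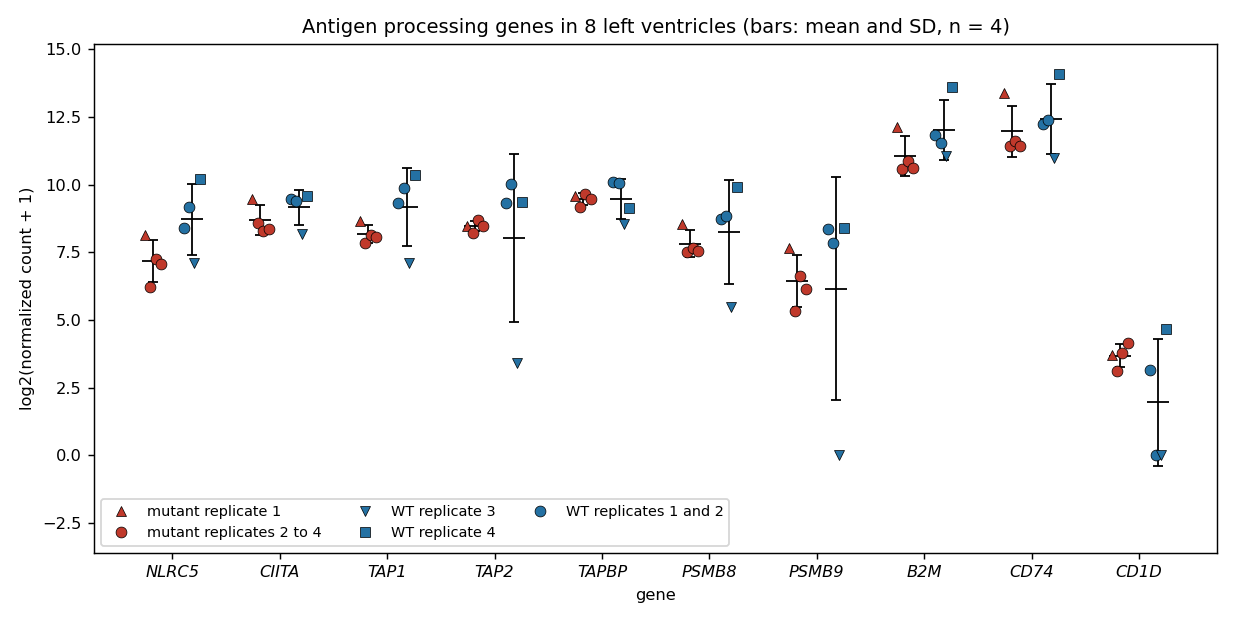
Level of each of the 10 genes as log2(normalized count + 1) on the vertical axis, with the mutant group left of the WT group for each gene; points are libraries and bars the mean and SD (n = 4 each). WT replicate 3 is the lowest of all 8 libraries for 7 genes and WT replicate 4 the highest for 8. Among all genes tested these shares are 31.7% and 21.3%.

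NLRC5, the coactivator of class I genes, had 281, 74.4, 150 and 134 normalized counts in mutant replicates 1 to 4, against 337, 571, 136 and 1194 in WT replicates 1 to 4. Only WT replicate 3 reached into the mutant range, and WT replicate 4 was the highest library. Means were 160 ± 87.1 in mutant and 559 ± 459 in WT libraries (SD, n = 4 each), a log2 difference of -1.55 ± 0.64 (SE; limma adjusted p = 0.328). With WT replicate 3 left out it was -2.09 ± 0.53 (SE; limma adjusted p = 0.188), and without WT replicate 4 it was -1.05.

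CIITA, the coactivator of class II genes, had 718, 387, 312 and 327 normalized counts in mutant replicates 1 to 4, against 706, 669, 291 and 775 in WT replicates 1 to 4. The groups overlapped, since mutant replicate 1 was as high as the upper WT libraries and WT replicate 3 was the lowest of all. Its log2 difference was -0.48 ± 0.38 (SE; limma adjusted p = 0.567), and -0.80 ± 0.31 (SE) without WT replicate 3 and -0.33 without WT replicate 4. The ratio of NLRC5 to CIITA within a library ran from 0.192 to 0.481 in mutant and from 0.467 to 1.54 in WT libraries. The ranges overlapped, with mutant replicate 3, at 0.481, above WT replicates 1 and 3, at 0.477 and 0.467.

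TAP1 and TAP2 encode the paired subunits of the peptide transporter. TAP1 had 400, 231, 278 and 266 normalized counts in mutant replicates 1 to 4, against 647, 945, 136 and 1314 in WT replicates 1 to 4. The 4 mutant libraries lay below every WT library except WT replicate 3, which was the lowest of all. The log2 difference was -0.997 ± 0.62 (SE; limma adjusted p = 0.471), and -1.69 ± 0.30 (SE; limma adjusted p = 0.154) without WT replicate 3. Without WT replicate 4, the highest library, it was -0.60. TAP2 had 357, 300, 414 and 350 normalized counts in mutant replicates 1 to 4, against 644, 1037, 9.69 and 655 in WT replicates 1 to 4. WT replicate 3 held only 2 reads of TAP2, where the mean level of the other WT libraries would give 161 reads at its depth.

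For TAP2 that single library set the sign of the limma difference, while edgeR and DESeq2 both gave -0.73 with all 8 libraries. Means were 355 ± 46.7 in mutant and 586 ± 426 in WT libraries (SD, n = 4 each), yet the difference of log2 values was 0.44 ± 1.24 (SE; limma adjusted p = 0.882), and it was -1.10 ± 0.24 (SE; limma adjusted p = 0.165) without WT replicate 3. The spread of TAP2 among the mutant libraries was small, with an SD of 0.19 on the log2 scale, against 0.33 for the median of all genes tested.

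TAPBP encodes tapasin, which bridges the transporter to class I molecules. Normalized counts were 774, 576, 811 and 707 in mutant replicates 1 to 4, against 1102, 1072, 378 and 570 in WT replicates 1 to 4. Here WT replicate 4, the highest library for both coactivators and for TAP1, was the lowest but one. The log2 difference was 0.00 ± 0.36 (SE; limma adjusted p = 0.999), and -0.30 ± 0.28 (SE) without WT replicate 3.

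PSMB8 and PSMB9 encode catalytic subunits of the immunoproteasome, which replace constitutive subunits when interferon gamma acts on a cell. PSMB8 had 373, 182, 203 and 187 normalized counts in mutant replicates 1 to 4, against 430, 456, 43.6 and 975 in WT replicates 1 to 4. Apart from WT replicate 3, which held 9 reads, every WT library lay above every mutant library. Its log2 difference was -0.43 ± 0.81 (SE; limma adjusted p = 0.816), and -1.35 ± 0.38 (SE; limma adjusted p = 0.216) without WT replicate 3, and it was 0.14 without WT replicate 4.

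PSMB9 had 202, 39.5, 97.2 and 69.5 normalized counts in mutant replicates 1 to 4, against 332, 231, 0 and 340 in WT replicates 1 to 4. The 0 in WT replicate 3 allows up to 3 reads, or 14.5 normalized counts, which is below the lowest other library, 39.5 normalized counts. The mean level of the other WT libraries would give 62.2 reads there; such floors cover counting error only. The log2 difference was 0.28 ± 1.71 (SE; limma adjusted p = 0.948) although the mean was lower in mutant libraries, at 102 ± 70.8, against 226 ± 158 in WT libraries (SD, n = 4 each). Without WT replicate 3 it was -1.78 ± 0.51 (SE; limma adjusted p = 0.222).

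**Figure D2:**
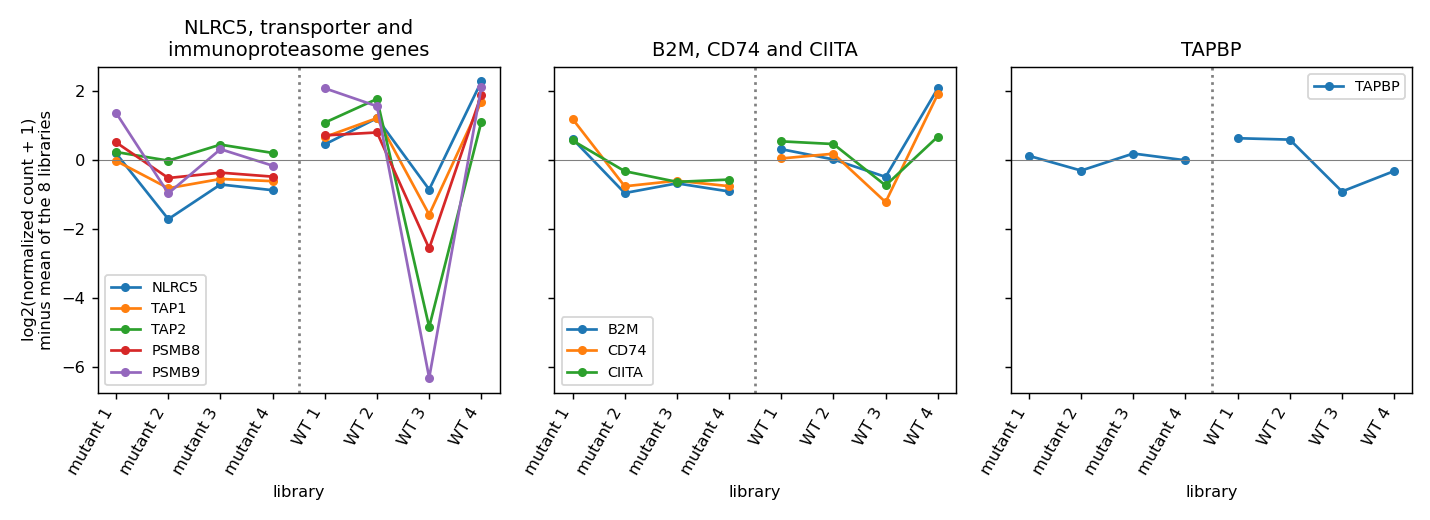
Centred log2 level of 9 of the genes, all but CD1D, in each library (vertical axis, log2(normalized count + 1) minus the mean of the 8 libraries), mutant libraries left and WT libraries right of the dotted line; lines join the libraries of 1 group only to follow a gene. Of these 9, PSMB9, TAP2 and PSMB8 lie lowest in WT replicate 3, at -6.30, -4.83 and -2.56. B2M, CD74 and CIITA are highest in WT replicate 4 and next in mutant replicate 1. PSMB9 and PSMB8 are also above their mean there, at 2.11 and 1.89 in WT replicate 4 and 1.36 and 0.51 in mutant replicate 1.

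In the RefSeq annotation of the pig assembly Sscrofa11.1, TAP2, PSMB8, TAP1 and PSMB9 are consecutive protein-coding genes in that order, next to the class II gene SLA-DOB. Among the 45 pairs of the 10 genes, TAP1 and PSMB8 were the second most alike in profile, with a root mean square (RMS) difference of 0.45 between their centred log2 values over the 8 libraries, and 0.27 without WT replicate 3. TAP1 and NLRC5, which lie on different chromosomes, came next at 0.48, and ranked lower, at 0.42, without WT replicate 3. The strand setting of the counting is not known, so reads from any stretch that neighbouring genes share cannot be told apart. These profiles share libraries and depth, so the values only describe likeness.

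On recovered reads, DESeq2 called none of the 10 genes with all 8 libraries (smallest adjusted p = 0.0702, for NLRC5), where it called 3.24% of all genes lower and 1.32% higher. The authors' deposited table likewise gives none of the 10 an adjusted p under 0.05, and calls 3.23% of all genes lower and 1.32% higher. Without WT replicate 3, an alternative chosen after seeing the data, DESeq2 called 4 of the 10 genes lower in mutant ventricles, where it called 3.03% of all genes lower. Its log2 differences were -1.72 for TAP1 (DESeq2 adjusted p = 0.000203), -2.13 for NLRC5 (DESeq2 adjusted p = 0.00707), -1.13 for TAP2 (DESeq2 adjusted p = 0.0069) and -1.39 for PSMB8 (DESeq2 adjusted p = 0.0363). PSMB9 had -1.56 (DESeq2 adjusted p = 0.0662). Under limma without that library these genes did not pass, so the call depends on both the tool and the library. DESeq2 also called NLRC5 lower, alone of the 10, without WT replicate 1 (DESeq2 adjusted p = 0.0496; 5.19% of all genes called lower) and without mutant replicate 1 (DESeq2 adjusted p = 0.0397; 1.97% called lower).

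**Figure D3:**
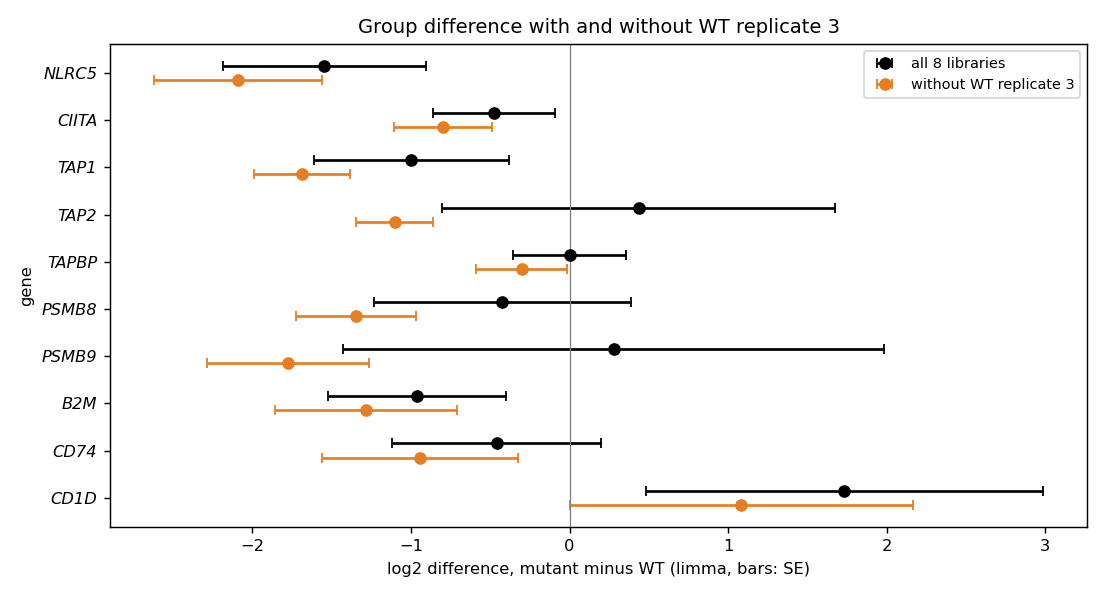
Log2 difference of each gene, mutant minus WT, from limma (horizontal axis; bars are SE), with all 8 libraries in black and without WT replicate 3 in orange. TAP2 and PSMB9 lie above 0 with all libraries and at -1.10 and -1.78 without WT replicate 3, and their SE shrinks from 1.24 and 1.71 to 0.24 and 0.51.

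B2M encodes β2-microglobulin, the light chain shared by class I molecules and by CD1D. It had 4545, 1532, 1860 and 1581 normalized counts in mutant replicates 1 to 4, against 3694, 3006, 2117 and 12507 in WT replicates 1 to 4. Mutant replicate 1 lay above 3 of the 4 WT libraries, while the other mutant libraries lay below all of them. The log2 difference was -0.96 ± 0.56 (SE; limma adjusted p = 0.447), -1.28 without WT replicate 3, and -0.43 without WT replicate 4, the highest library. RefSeq lists 2 pig genes under the symbol B2M, which lie side by side, so reads could be split between near-identical copies and the level is uncertain to that extent.

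CD74, the invariant chain, had 10727, 2775, 3104 and 2782 normalized counts in mutant replicates 1 to 4, against 4850, 5334, 2020 and 17582 in WT replicates 1 to 4. Mutant replicate 1 held 3.86 times the median of the other mutant libraries, and WT replicate 4 was the highest of all, so each group had 1 high library. Its log2 difference was -0.46 ± 0.66 (SE; limma adjusted p = 0.751), -0.94 without WT replicate 3, and 0.10 without WT replicate 4. CD74 and B2M were the most alike of the 45 pairs (RMS difference 0.36, and 0.25 without WT replicate 3). The ratio of B2M to CD74 within a library stayed between 0.424 and 0.599 in mutant and between 0.564 and 1.05 in WT libraries.

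Class II genes had the same high libraries as CD74. The table gives the class II α-chain gene its human name, HLA-DRA, and that row, which was taken up after the table was seen, had 4229, 827, 1095 and 918 normalized counts in mutant replicates 1 to 4, against 1188, 1491, 1153 and 7050 in WT replicates 1 to 4. SLA-DMB, a chain of the molecule that exchanges class II peptides, had 542, 126, 192 and 162 normalized counts in mutant replicates 1 to 4, against 255, 110, 48.4 and 651 in WT replicates 1 to 4. As with CD74, 1 mutant and 1 WT library stood above the rest. For CD74 the rest ran from 2775 to 3104 normalized counts in mutant and from 2020 to 5334 in WT libraries.

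WT replicate 4 was the highest library and mutant replicate 1 the second for CD74, which set the order compared, and for HLA-DRA, SLA-DQB1, SLA-DMA, SLA-DMB and SLA-DOA, and this order held for 4.99% of all genes tested. HLA-DOB, which was too low to pass the filter, had 8.55, 5.32, 3.58 and 4.63 normalized counts in mutant replicates 1 to 4, against 3.18, 1.73, 0 and 66.7 in WT replicates 1 to 4. B2M and CIITA had the same first and second library. All 7 endothelial markers (PECAM1, CDH5, KDR, TEK, TIE1, VWF and EMCN) shared that order, and 0 of 9 macrophage markers did. Of the 9 macrophage markers, 7 were highest among WT libraries in WT replicate 4, and 0 were highest among mutant libraries in mutant replicate 1. Summed endothelial markers stood at 25207, 15800, 17443 and 16771 normalized counts in mutant replicates 1 to 4, against 20096, 8119, 8018 and 38491 in WT replicates 1 to 4. Macrophage sums ran from 1544 to 4375 in mutant and from 858 to 5031 in WT libraries, highest in mutant replicate 2 and WT replicate 4. Smooth muscle and pericyte markers summed to 19517, 11607, 13444 and 13094 normalized counts in mutant replicates 1 to 4. In WT replicates 1 to 4 they summed to 19660, 8253, 33665 and 32243. The part of any of these markers in the class II values was not tested, and in bulk tissue fewer cells of a type and less RNA per cell cannot be told apart.

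The summed markers of B cells and dendritic cells did not share that order. B cell markers (5 of 5 in the table) summed to 1.22 to 14.3 normalized counts in mutant and 14.3 to 77.5 in WT libraries, and the highest sum, in WT replicate 3, came from PAX5 alone. Dendritic cell markers (5 of 6 in the table) summed to 284 to 371 in mutant and 4.84 to 805 in WT libraries, mostly ZBTB46, which endothelium also expresses, or, in WT replicate 2, BATF3. No B cell marker was at 0 in every library. T cell markers (6 of 7 in the table) did have the same high libraries, in reverse order. Their sum was 170 in mutant replicate 1 and 147 in WT replicate 4, with 136 in WT replicate 3 next. NK cell markers (5 of 5 in the table) summed to 71.6 in WT replicate 4, 54.0 in WT replicate 1 and 53.1 in mutant replicate 1. The part of these markers in the class II values was not tested.

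**Figure D4:**
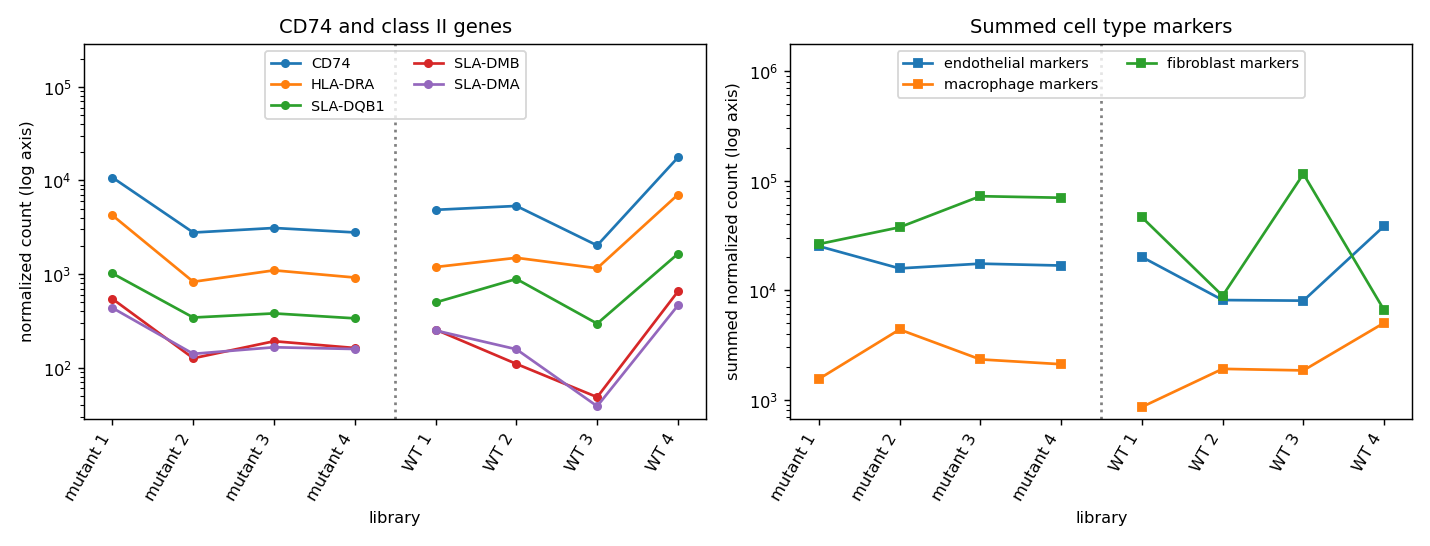
Normalized counts of CD74 and 4 class II genes (left, log axis) and summed endothelial, macrophage and fibroblast markers (right, log axis) in each library, mutant libraries left of the dotted line and WT libraries right of it. CD74, the class II genes and the endothelial sum are highest in WT replicate 4 and next in mutant replicate 1; the macrophage sum is next highest in mutant replicate 2, and the fibroblast sum is lowest in WT replicate 4.

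CD1D presents lipids rather than peptides, and it was close to the limit of detection. It had 12.2, 7.59, 12.9 and 16.6 normalized counts in mutant replicates 1 to 4, against 7.95, 0, 0 and 24.3 in WT replicates 1 to 4, from at most 25 reads in a library. The gene passed the filter through 3 mutant libraries and 1 WT library, and a count of 0 in WT replicate 3 allows up to 14.5 normalized counts, so its level there was not detectable at this depth. The difference of 1.73 ± 1.25 (SE; limma adjusted p = 0.527) rests on such counts. It was 1.08 without WT replicate 3, 0.50 in edgeR, 0.54 in DESeq2 and 0.32 after quantile rescaling, and ran from 0.06 to 2.64 over limma and DESeq2 with 1 library left out.

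Of the 12 further genes of peptide supply and class I loading, all were measured, 6 above and 6 below 0, with a median log2 difference of 0.02, and -0.18 without WT replicate 3; none passed limma (smallest adjusted p = 0.223). ERAP1, the aminopeptidase that trims peptides to length, had 539, 421, 546 and 538 normalized counts in mutant replicates 1 to 4, against 304, 289, 257 and 323 in WT replicates 1 to 4. All mutant libraries lay above all WT libraries, with a difference of 0.80 ± 0.21 (SE; limma adjusted p = 0.223), and the authors' deposited table calls it higher (adjusted p = 0.0117). Calnexin (CANX), a chaperone of new heavy chains, had a difference of 0.62 ± 0.26 (SE). PSME1, a subunit of the proteasome activator PA28, had 1305 to 1384 normalized counts in mutant and 1565 to 2018 in WT libraries, with no overlap, and a difference of -0.45 ± 0.19 (SE). IRF1, an interferon-induced transcription factor named here after its values were seen, had 385, 155, 222 and 217 normalized counts in mutant replicates 1 to 4, against 628, 2831, 165 and 735 in WT replicates 1 to 4, and the authors' deposited table calls it lower (adjusted p = 0.0452).

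PSMB10 is the remaining catalytic subunit of the immunoproteasome and takes the place of the constitutive subunit PSMB7. PSMB10 had 213, 252, 245 and 216 normalized counts in mutant replicates 1 to 4, against 482, 285, 465 and 318 in WT replicates 1 to 4, a log2 difference of -0.71 ± 0.26 (SE; limma adjusted p = 0.292) without overlap. PSMB7 had 790, 951, 1005 and 946 normalized counts in mutant replicates 1 to 4, against 1363, 852, 809 and 420 in WT replicates 1 to 4. It differed by 0.21 ± 0.33 (SE; limma adjusted p = 0.772), and WT replicate 4, with the highest ratio below, had the lowest PSMB7. The ratio of PSMB10 to PSMB7, which does not depend on library scaling, was 0.269, 0.265, 0.243 and 0.228 in mutant replicates 1 to 4, against 0.354, 0.335, 0.575 and 0.757 in WT replicates 1 to 4. Mutant libraries lay below all WT libraries, and the log2 ratio was lower by 0.92, at -1.99 ± 0.11 in mutant and -1.07 ± 0.57 in WT libraries (SD, n = 4 each; two-sided exact permutation test, unadjusted p = 0.0286, the lowest possible with 70 assignments). Any measure without overlap between the groups gives that p. Among single genes tested, 5.22% had every mutant library below every WT library and 6.17% had every mutant library above. Without WT replicates 3 and 4, which have the highest mitochondrial shares, the log2 ratio was lower by 0.45.

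Interferon gamma signalling genes, 12 of 12 measured, had 8 members below and 4 above 0 with a median of -0.41; none passed limma (smallest adjusted p = 0.296), and the authors' deposited table calls 2 lower, IRF8 and SOCS3, where it calls 3.23% of all genes lower. Without WT replicate 3 the median was -0.77, and DESeq2 called 4 of these 12 genes and 3 of the 12 class I loading genes lower, where it called 3.03% of all genes lower. STAT2, a signal transducer of type I interferon, had 335 to 364 normalized counts in mutant and 368 to 808 in WT libraries, with a difference of -0.73 ± 0.27 (SE; limma adjusted p = 0.296). IRF8, a transcription factor of myeloid cells, and SOCS3, a feedback inhibitor of cytokine signalling, differed by -1.97 ± 0.80 (SE) and -2.23 ± 0.96 (SE), and the phosphatase gene PTPN2 by -0.87 ± 0.47 (SE). SOCS3 and IRF8 were highest in WT replicate 2, at 5388 and 717 normalized counts, the library that also had the highest summed neutrophil markers, 2198 normalized counts against 14.0 to 319 in the other 7; the part of those markers in these values was not tested.

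Factors that bind MHC promoters, 9 of 10 measured, had a median of -0.04 with 5 below and 4 above 0. EZH2, a histone methyltransferase known to silence such promoters, had 62.9 to 79.0 normalized counts in mutant and 104 to 169 in WT libraries, with no overlap and a difference of -0.89 ± 0.34 (SE; limma adjusted p = 0.310; adjusted p = 0.0499 in the authors' deposited table). The NF-Y subunit gene NFYB differed by -0.41 ± 0.24 (SE) and CREB1 by 0.45 ± 0.30 (SE). NFYA, another NF-Y subunit gene, had 0 reads in WT replicate 3 and 188 to 421 normalized counts in the other WT libraries, and differed by 1.92 ± 1.63 (SE) with that library and by -0.09 without it.

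Class II processing genes, 11 of 11 measured, had a median of -0.06, with 6 below and 5 above 0, and -0.28 without WT replicate 3, with 9 below and 2 above 0. CD40, a costimulatory receptor, had 67.5 to 86.1 normalized counts in mutant and 97.7, 2191, 111 and 428 in WT replicates 1 to 4, with no overlap, and the authors' deposited table calls it lower (adjusted p = 0.00686). The endosomal proteases LGMN, CTSH and CTSL differed by 0.43 ± 0.23, -0.64 ± 0.40 and -1.62 ± 1.07 (SE). Of 23 pig MHC and related genes listed, 6 were in the table under the listed names; the class I heavy chain genes on the list were not analysed here. Those 6 had a median of 0.30 with 5 above and 1 below 0, and -0.34 with 2 above and 4 below 0 without WT replicate 3. SLA-DQB1 and SLA-DMA, class II chain genes, differed by -0.57 ± 0.55 and 0.29 ± 0.70 (SE), MR1, which presents vitamin metabolites, by 0.47 ± 0.75 (SE), and FCGRT, the neonatal Fc receptor, by 0.29 ± 0.22 (SE). Genes of lipid loading, 7 of 8 measured, had a median of 0.22, and -0.01 without WT replicate 3, and AP3B1, GM2A, NPC1 and PSAP differed by 0.55 ± 0.29, 0.43 ± 0.42, 0.29 ± 0.32 and 0.19 ± 0.30 (SE). None of these passed limma.

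**Figure D5:**
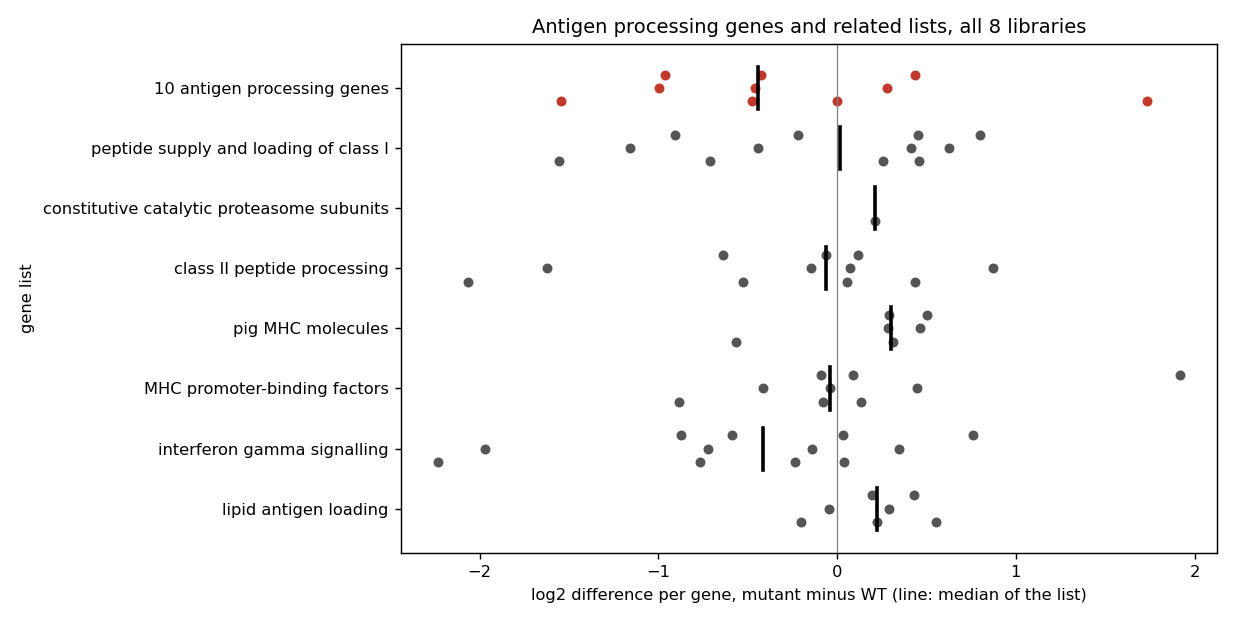
Log2 difference of each measured gene, mutant minus WT (horizontal axis), for the 10 antigen processing genes in red and 7 related lists in grey, with the median of each list as a black line. The median of the 10 genes is -0.44 and that of interferon gamma signalling -0.41, and the other medians lie between -0.06 and 0.30.

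Among 10113 other genes with a mean of at least 50 normalized counts, those nearest to the mean profile of NLRC5, TAP1, TAP2, TAPBP, PSMB8, PSMB9 and B2M over the 8 libraries were PML, TOE1, SHISA4, STK17A, RFX5 and ID3, with RMS differences of 0.25 to 0.40 log2 units, against a median of 1.31 over those genes. PML, an interferon-induced nuclear protein, had 407, 218, 235 and 252 normalized counts in mutant replicates 1 to 4, against 490, 807, 53.3 and 660 in WT replicates 1 to 4. All 6 were lowest in WT replicate 3, as 31.7% of all genes tested were. The mean profile they were chosen for was at -2.50 there, so this follows from the choice. Without that library, a choice made after seeing the data, the nearest were HERC6, PARP9, IRF9, IFIT2, PARP12 and PML, with RMS differences of 0.14 to 0.26, and PML alone was in both sets. HERC6 had 1020, 394, 503 and 470 normalized counts in mutant replicates 1 to 4, against 1310, 1212, 494 and 1749 in WT replicates 1 to 4. Mutant replicate 1 was the highest mutant library and WT replicate 4 the highest WT library for HERC6, as for NLRC5, PSMB8, B2M and CD74. HERC6 was chosen for likeness to a mean profile that includes NLRC5, PSMB8 and B2M, so sharing their high libraries follows from that choice.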

How the data were processed

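Left ventricular RNA of 8 pigs was sequenced after selection of polyadenylated RNA with random-primed cDNA, per the labels' protocols, and strand use is not given there. The deposited signal columns hold normalized counts made by the authors, and the remaining deposited columns hold the authors' log2 fold change with its standard error, a Wald score, the p-value and the adjusted p-value, per the file headers. DESeq2 and the human build GRCh38 are named in the submitters' processing notes; aligner, counter and annotation: not given in the sources used here. Coordinates are therefore not printed. The reference tables used here hold no sequences, so none is shown.

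Each library's values were multiples of a single step, the worth of 1 read (100% within a relative tolerance of 1e-06), which gave whole reads. Of 14720 rows, 2 named for an annotation source, holding 0.392% to 0.853% of reads, were left out. The filter asked for 10 or more normalized counts in 4 or more libraries (11660 genes passed), and limma 3.58.1 in R 4.3.3 (trended, robust prior) was fitted to log2(normalized count + 1), with Benjamini-Hochberg adjustment over all genes, after a test on simulated data. Alternatives were edgeR 4.0.16 and DESeq2 1.42.0 on recovered reads, other scalings, pseudocounts, filters and priors, and leaving out libraries. The 10 genes and the related lists were chosen with earlier results of these data known. Beside the 10 genes, those named are the 4 with the smallest p of each list, PSMB10 with PSMB7, and the 6 nearest profiles; others are named as such. Likeness is the RMS difference of centred log2 values. Groups follow the genotype labels, and replicate numbers only name libraries.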

Additional observations from a re-analysis of the deposited data

Results flagged for a closer look

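In these 42 measures, each tested in both groups of 4 libraries, a library was set apart where its gap to the nearest other was, as a share of the group's range on the log2 scale, above Dixon's 95% critical value, which chance gives in about 1 in 20 groups; it occurred 13 times in 84 groups, with the shares given here. These groups share the same libraries, and many of the genes were picked by smallest p or nearest profile. The count therefore cannot be set against the rate from chance. Mutant replicate 1 was the high one for CD74 (0.917), PSMB8 (0.849), SLA-DQB1 (0.89), SLA-DMA (0.857), RFX5 (0.908) and SHISA4 (0.876). WT replicate 3 was the low one for PSMB9 (0.934), TAP2 (0.896), CIITA (0.849) and NFYA (0.867). Mutant replicate 2 was the low one for ERAP1 (0.943) and CANX (0.873), and WT replicate 1 for CTSL (0.914).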

How the results depend on the processing

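No paired analysis was possible because the labels give no replicate numbers shared between the groups. The ratios of PSMB8 to PSMB5 and of PSMB9 to PSMB6 were planned and not run, since PSMB5 and PSMB6 were not analysed here. WT replicate 3, with 2.53 M reads of nuclear genes, limits the depth for low genes. Over all genes limma called 0 (1616 at an unadjusted p under 0.05) and edgeR 0 (1735), while DESeq2 called 582, limma after quantile rescaling 3, with array quality weights 92, and without WT replicates 3 and 4 together 12. Leaving out 1 library at a time, which for DESeq2 was chosen after seeing the data, gave 0 to 3 calls with limma and 128 to 1027 with DESeq2. None of the 10 genes was called under any limma alternative, by edgeR or by DESeq2 with all libraries, and leaving out 1 library with DESeq2 gave 0 to 4 of them. NLRC5 was the 1 called without WT replicate 1 (DESeq2 adjusted p = 0.0496) and without mutant replicate 1 (DESeq2 adjusted p = 0.0397). The differences of NLRC5, TAP1, B2M, CIITA and CD1D kept their direction in every alternative that gave a value (CD1D had none at a minimum of 100). TAP2 turned to -0.73 in edgeR, -0.73 in DESeq2, -0.68 with array weights and -1.21 without WT replicates 3 and 4, and ran from -1.13 to 1.10 with 1 library left out. PSMB9 turned to -1.17 in edgeR, -1.15 in DESeq2, -0.72 after quantile rescaling, -0.24 at a pseudocount of 5, -1.25 with array weights and -1.68 without WT replicates 3 and 4, and ran from -1.78 to 1.03 with 1 library left out. TAPBP, near 0, turned to -0.12 in edgeR, -0.13 in DESeq2, -0.33 with array weights and -0.61 without WT replicates 3 and 4, and ran from -0.35 to 0.21 with 1 library left out. CD74 ran from -1.37 to 0.25 and PSMB8 from -1.39 to 0.14, each above 0 only without WT replicate 4. The median of the 10 genes ran from -1.35 to -0.0028 with 1 library left out, over limma and DESeq2. The median over all genes was 0.16 after TMM rescaling, 0.20 per nuclear read total and -0.06 in DESeq2. The log2 ratio of PSMB10 to PSMB7 ran from -1.09 to -0.70 with 1 library left out. Without a mutant library its exact permutation p was 0.0857, and without WT replicates 3 and 4 it was -0.45 (exact permutation p = 0.0667, the smallest possible there). The related lists and the nearest profiles without WT replicate 3 were also chosen after seeing the data. Beyond the fewer samples, the cause of these changes was not tested.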
